A study of Mus musculus with 23 samples.

Results

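Acute phase proteins are plasma proteins whose output changes in infection or injury, and 9 of their genes were followed here in medullary thymic epithelial cells (mTECs). The genes were chosen by name, with earlier results of these data known, as Crp, Apcs, Saa1, Saa2, Saa3, Orm1, Hp, Hpx and Lbp. All 9 were matched to 1 identifier each among the 53402 of the deposited count table. Of these, 8 passed the filter on low counts and were tested, and Apcs was too low to be tested. The filter was passed by 19310 genes, and a gene high in 1 group could pass through that group alone. Saa2 was such a gene, with 497 counts over WT mTEChi, against 11 in KO mTEChi, 2 in KO mTEClo and 12 in WT mTEClo.

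Bulk RNA was sequenced from thymus of C57BL/6 mice that lacked the transcriptional regulator Aire (KO) or were wild type (WT), without any treatment in the labels. DAPI- CD45- EpCAM+ Ly51- cells had been sorted by MHC class II into a high gate (mTEChi), where most Aire is expressed, and a low gate (mTEClo). The 23 libraries formed 4 groups, with 4 of KO mTEChi, 7 of WT mTEChi, 4 of KO mTEClo and 8 of WT mTEClo. The labels name neither the Aire allele nor the number of animals behind a library, so p-values measure the spread between libraries. All KO libraries were male, 2 of 5 weeks and 2 of 6 weeks in each gate. The WT mTEChi libraries were 2 males of 4 weeks with 3 males and 2 females of 5 weeks, and the WT mTEClo libraries were 4 males and 1 female of 4 weeks with 1 male and 2 females of 5 weeks.

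In the liver the acute phase response is driven by cytokines, chiefly IL-6 through gp130 and STAT3 and IL-1 through NF-kB and C/EBP factors, and hepatocytes then secrete pentraxins, serum amyloid A, haptoglobin and other carriers. mTECs transcribe many genes of peripheral tissues, liver plasma proteins among them, which exposes developing T cells to their peptides, and Aire is known to act on a large part of these genes. Pentraxins (Crp, Apcs) bind microbial surfaces and debris, serum amyloid A proteins (Saa1, Saa2, Saa3) travel with lipoproteins, and haptoglobin (Hp) and hemopexin (Hpx) bind free haemoglobin and haem. Orm1 encodes the plasma carrier alpha-1-acid glycoprotein, and Lbp encodes the protein that passes bacterial lipopolysaccharide to CD14. In mouse Crp is known as a weak and Apcs as a strong acute phase reactant.

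Library totals were 2528049 to 3106026 counts in KO mTEChi, 1602125 to 3231079 in WT mTEChi, 1639231 to 3938588 in KO mTEClo and 1628778 to 3883437 in WT mTEClo. The 6 libraries under 2000000 counts, called shallow here, were replicates 1 and 2 of WT mTEChi, of KO mTEClo and of WT mTEClo, and KO mTEChi had none. In WT mTEChi and KO mTEClo they were all the libraries of the youngest age, so depth and age cannot be told apart inside these groups, while WT mTEClo also held 2 deeper males and a deeper female of 4 weeks. Aire itself had a median of 29.4 CPM (counts relative to the TMM-scaled library total; range 16.6 to 38.1) in KO mTEChi, against 829.2 CPM (746 to 914) in WT mTEChi. In KO mTEClo its median was 1.68 CPM (0 to 7.63), against 76.2 CPM (19.2 to 128) in WT mTEClo, so KO and WT libraries did not overlap in either gate. None of the 13 mTEC markers, among them Epcam, Krt5 and Cd74, was at 0 in any group.

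Most of these genes lie near a relative. Crp (ENSMUSG00000037942, chr1:172698055-172833031, plus strand, GRCm38) has Apcs (ENSMUSG00000026542, chr1:172893961-172895041, minus strand) as its nearest protein-coding gene, 60930 bases away. Its annotated model holds 2 exons next to the start and a distal exon of 1749 bases that begins 133228 bases downstream, and it overlaps the processed pseudogene Gm38051, so counts at Crp may include reads from that span. The serum amyloid A genes share a cluster on chromosome 7 with Saa3 (ENSMUSG00000040026, chr7:46711998-46715700, minus strand), Saa4 (ENSMUSG00000040017, chr7:46727998-46732603, minus strand), Saa1 (ENSMUSG00000074115, chr7:46740497-46742980, minus strand) and Saa2 (ENSMUSG00000057465, chr7:46751790-46754313, plus strand). Saa1 and Saa2 transcripts were 94.4% identical over 606 aligned bases, and Saa1 and Saa3 were 60.2% identical, so counts split between Saa1 and Saa2 are uncertain. Orm1 (ENSMUSG00000039196, chr4:63344560-63348163, plus strand) is followed by Orm3 and Orm2, whose transcripts were 86.5% and 91.0% identical to it, with the same uncertainty. Hp (ENSMUSG00000031722, chr8:109575128-109579172, minus strand), Hpx (ENSMUSG00000030895, chr7:105591613-105600137, minus strand) and Lbp (ENSMUSG00000016024, chr2:158306493-158332852, plus strand) overlapped no other gene of the annotation.

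Promoter windows of 300 bases (250 before and 50 after the start, RefSeq on GRCm38.p6) were given for 6 of the 9 genes, Crp, Apcs, Saa1, Saa2, Saa3 and Hpx. Those of Saa1, Saa2 and Saa3, which were lower in KO mTEChi, and of Crp, which was higher there, are printed 5′ to 3′ on the strand of the gene. Capitals mark matches to 3 motifs searched on both strands: STAT (TTCNNNGAA), C/EBP (TTNNGNAAT) and NF-kB (GGANTTTCC).
Saa1 (chr7:46742931-46743230, minus strand): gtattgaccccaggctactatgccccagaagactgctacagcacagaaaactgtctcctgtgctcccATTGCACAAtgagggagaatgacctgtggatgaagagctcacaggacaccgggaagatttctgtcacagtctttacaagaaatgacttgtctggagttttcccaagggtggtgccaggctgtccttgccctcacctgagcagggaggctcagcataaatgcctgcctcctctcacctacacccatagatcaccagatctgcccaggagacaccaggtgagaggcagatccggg
Saa2 (chr7:46751583-46751882, plus strand): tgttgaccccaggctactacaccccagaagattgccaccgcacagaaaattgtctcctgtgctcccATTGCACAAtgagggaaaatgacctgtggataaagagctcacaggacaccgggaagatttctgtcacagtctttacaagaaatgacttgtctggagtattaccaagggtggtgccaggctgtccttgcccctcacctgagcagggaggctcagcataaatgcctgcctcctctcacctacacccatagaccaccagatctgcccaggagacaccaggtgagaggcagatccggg
Saa3 (chr7:46715627-46715926, minus strand): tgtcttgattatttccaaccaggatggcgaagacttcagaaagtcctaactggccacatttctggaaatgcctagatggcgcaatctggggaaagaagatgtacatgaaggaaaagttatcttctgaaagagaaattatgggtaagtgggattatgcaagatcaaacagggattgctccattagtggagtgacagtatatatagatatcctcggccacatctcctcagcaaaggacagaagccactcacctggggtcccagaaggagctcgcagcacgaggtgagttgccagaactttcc
Crp (chr1:172697806-172698105, plus strand): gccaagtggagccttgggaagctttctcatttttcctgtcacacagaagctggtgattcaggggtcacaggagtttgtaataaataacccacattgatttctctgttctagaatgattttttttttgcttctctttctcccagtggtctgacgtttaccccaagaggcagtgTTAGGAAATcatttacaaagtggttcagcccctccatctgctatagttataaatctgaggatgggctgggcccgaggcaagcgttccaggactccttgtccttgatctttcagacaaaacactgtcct

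The Saa1 and Saa2 windows were 96.0% identical over 299 aligned bases and hold the same C/EBP match, ATTGCACAA, at bases 68 to 76 and 67 to 75 of their windows. The Saa3 window was 61.2% identical to that of Saa1 over 273 aligned bases and held no match to the 3 motifs. Crp held a C/EBP match, TTAGGAAAT, at bases 173 to 181, Apcs (chr1:172895005-172895304) held a STAT match, TTCTAGGAA, and the Hpx window held none. Among 32851 promoters of the same length, 11.5% held the C/EBP motif, 8.3% the STAT motif and 1.25% the NF-kB motif. A match describes letters only and was not tested as a binding site.

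Per kilobase of exon, the genes ranked differently in the 4 groups. RPKM (CPM per kilobase of merged exons) was highest for Orm1 in KO mTEChi, at 10.8 ± 3.17 (SD, n = 4), where Crp followed at 6.01 ± 0.315 and Saa3 at 4.90 ± 2.27. In WT mTEChi Saa3 led at 31.2 ± 8.68 RPKM (n = 7), with Saa1 at 26.5 ± 5.13 and Orm1 at 20.8 ± 7.41, and the spreads of the first and second overlapped. In KO mTEClo Lbp led at 13.5 ± 2.38 RPKM (n = 4) and Crp followed at 8.91 ± 3.38, with overlapping spreads. In WT mTEClo Crp led at 23.6 ± 4.65 RPKM (n = 8), above Hp at 11.0 ± 3.04 and Lbp at 8.88 ± 0.872. The rank of Crp depends on its distal exon, which makes up 1749 of its 3444 merged bases. Over the other 1695 bases, a length chosen after seeing the data, Crp would be at 12.2 ± 0.642 RPKM in KO mTEChi, 8.71 ± 1.75 in WT mTEChi, 18.1 ± 6.86 in KO mTEClo and 47.9 ± 9.45 in WT mTEClo. It would then have the highest mean in both KO groups, with spreads that overlap those of Orm1 in KO mTEChi and Lbp in KO mTEClo. Summed over the 9 genes, the median library held 55.8 CPM (47.8 to 65.3) in KO mTEChi and 252 CPM (212 to 304) in WT mTEChi, with no overlap. KO mTEClo held 111 CPM (85.9 to 139) and WT mTEClo 181 CPM (162 to 231), again with no overlap. Saa1, Saa2 and Saa3 together made up 36.4% of the CPM of the 9 genes pooled over the KO mTEChi libraries. That pooled share was 68.0% in WT mTEChi, 3.14% in KO mTEClo and 17.8% in WT mTEClo.

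**Figure D1:**
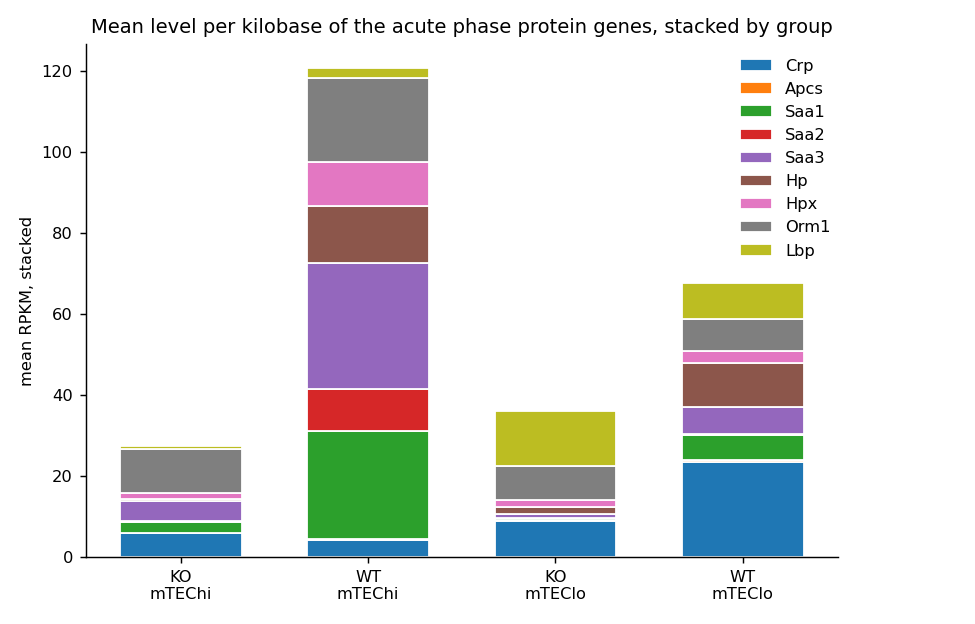
Mean RPKM of the 9 genes stacked by group, each colour 1 gene. Saa1, Saa2 and Saa3 fill most of the WT mTEChi bar, Crp leads in WT mTEClo at 23.6 RPKM, and Lbp leads in KO mTEClo at 13.5 RPKM, with the distal exon counted in the length of Crp.

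The first comparison asks what the loss of Aire does to these genes in the gate where Aire is highest. In KO mTEChi 7 of the 8 tested genes were lower than in WT mTEChi and Crp alone was higher. The 3 serum amyloid A genes and both haem-scavenger genes were lower by 7-fold or more, while Lbp and Orm1 were lower by 2.98-fold and 2.17-fold. All 8 passed at an adjusted p (edgeR's quasi-likelihood test, Benjamini-Hochberg over 19310 genes) under 0.05, where 53.3% of all tested genes did. Lower calls covered 7 of 8 genes here and 29.4% of all genes, and higher calls 1 of 8 genes and 23.9% of all genes. Since the genes were chosen with earlier results of these data known, such shares describe the set and do not test it. The median log2 change of the 8 was -2.98, against -0.05 over all tested genes.

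Among the serum amyloid A genes, Saa1 stood at 3.43, 7.11, 6.32 and 9.73 CPM in the 4 KO mTEChi libraries, against a median of 59.2 CPM (52.9 to 83.8) in WT mTEChi. Every KO library lay far below every WT library, with a log2 change of -3.43 (SE 0.30, adjusted p = 6.9e-10). Saa2 was at 0.428, 0.790, 1.66 and 1.22 CPM in KO mTEChi, from 11 counts in all, and at 26.2 CPM (20.04 to 29.5) in WT mTEChi. Relative to its mean it had the narrowest WT spread of the members in this gate, with an SD of 3.08 on a mean of 26.1 CPM, and its log2 change was -4.58 (SE 0.39, adjusted p = 1.8e-10). Saa3, which in mouse is made by macrophages, fat cells and epithelia more than by liver, stood at 11.99, 5.14, 19.3 and 14.6 CPM in KO mTEChi, against 73.0 CPM (58.6 to 116) in WT mTEChi. Its groups did not overlap either, with a log2 change of -2.81 (SE 0.53, adjusted p = 0.00018). The 2 shallow WT libraries held the highest Saa1 and Saa3 of WT mTEChi (80.0 and 83.8 CPM, 116 and 110 CPM). Among the deeper libraries the log2 changes were -3.25 for Saa1, -4.61 for Saa2 and -2.39 for Saa3, and all 8 genes passed there, as did 51.2% of all genes tested in those libraries. Saa4, the constitutive liver form, which is no member, was at 0 in all 4 KO mTEChi libraries and at 9.63 to 20.6 CPM in WT mTEChi, at least 43.9-fold lower in KO with a floor of 3 counts over the group.

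Of the scavengers, Hp was at 1.29, 0, 0.998 and 0.811 CPM in KO mTEChi, from 8 counts, against 23.3 CPM (10.9 to 34.6) in WT mTEChi. Its log2 change of -4.74 (SE 0.57, adjusted p = 1.8e-07) was the largest of the 8 in this comparison. Hpx was at 2.998, 0.790, 0.666 and 3.65 CPM in KO mTEChi, against 14.02 CPM (12.1 to 23.4) in WT mTEChi, with a log2 change of -3.15 (SE 0.46, adjusted p = 2.1e-06). For both genes all KO libraries lay below all WT libraries. Lbp was at 3.85, 3.56, 4.33 and 3.65 CPM in KO mTEChi and at 11.5 CPM (8.92 to 15.2) in WT mTEChi, again without overlap, with a log2 change of -1.58 (SE 0.22, adjusted p = 6.4e-07). Orm1 was at 4.71, 9.48, 9.65 and 9.73 CPM in KO mTEChi and at 16.3 CPM (8.73 to 25.0) in WT mTEChi, where the groups overlapped. Its log2 change was -1.12 (SE 0.26, adjusted p = 0.00071). The overlap came from both WT females, at 8.73 and 9.58 CPM, while WT males lay between 15.6 and 25.0 CPM.

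Crp went the other way. It stood at 19.3, 20.9, 20.6 and 21.9 CPM in KO mTEChi, against 14.4 CPM (12.1 to 19.5) in WT mTEChi, a log2 change of 0.58 (SE 0.20, adjusted p = 0.017). Of the WT females, 1 at 19.5 CPM reached the KO range and the other at 18.1 CPM lay just below it, and WT males lay between 12.1 and 14.9 CPM. The call ended without a sex term (log2 change 0.46, adjusted p = 0.058), with age as a term (0.29, adjusted p = 0.26) and with library totals as the only scaling (0.46, adjusted p = 0.063). That scaling moves all genes of this comparison by -0.12 on the log2 scale. Apcs had 0 counts in KO mTEChi, which allows up to 0.290 CPM over the group, and 5 counts in WT mTEChi (0.267 CPM, exact 95% Poisson interval 0.0868 to 0.624). The WT level lay under the KO floor, so no fold is given, and intervals and floors cover counting error only.

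**Figure D2:**
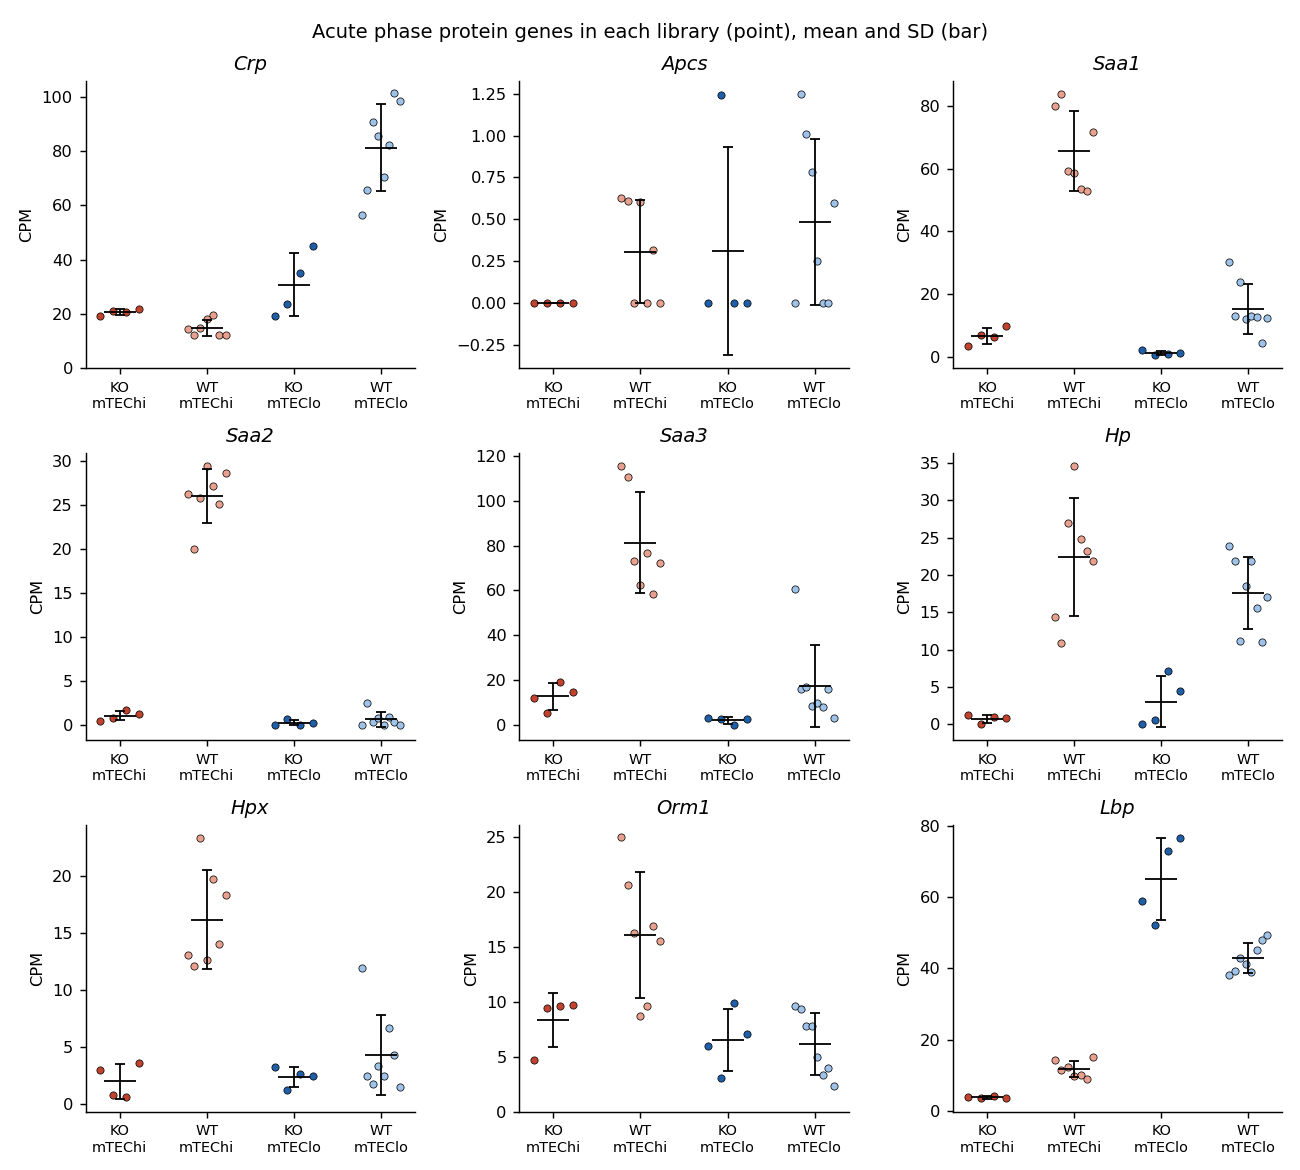
CPM of each gene (1 panel each) in each library (points) of the 4 groups, with the group mean (wide line) and SD (bars). The Saa, Hp and Hpx panels show WT mTEChi above KO mTEChi without overlap, and the Crp panel shows WT mTEClo at 56.3 to 101 CPM above all other groups.

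In mTEClo, where Aire is low in WT cells already, the loss of Aire was followed by a smaller and more mixed set of changes. Saa1, Saa3, Hp and Crp were lower in KO mTEClo, Lbp was higher, and Saa2, Hpx and Orm1 did not pass. Thus 5 of the 8 tested genes passed, where 21.8% of all tested genes did. Lower calls made up 4 of 8, against 8.91% of all genes, and the single higher call 1 of 8, against 12.9%. The median log2 change of the 8 was -1.23, against 0.03 over all tested genes.

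Crp, the leading member in WT mTEClo, stood at 19.1, 23.6, 35.1 and 44.9 CPM in KO mTEClo, against 83.8 CPM (56.3 to 101) in WT mTEClo. No KO library reached the lowest WT library, and the log2 change was -1.22 (SE 0.17, adjusted p = 5.9e-06). Inside KO mTEClo the 2 shallow libraries of 5 weeks were below the 2 deeper ones of 6 weeks. Among the WT mTEClo males of 4 weeks the 2 shallow libraries were also lower, at 56.3 and 65.5 CPM, than the 2 deeper ones, at 90.5 and 85.4 CPM. The log2 change of Crp was -1.06 among deeper libraries, where 5 of the 8 genes and 21.7% of all genes passed, and -1.55 among shallow ones, where 4 of the 8 genes and 20.8% of all genes passed.

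Saa1 was at 2.18, 0.622, 0.900 and 1.23 CPM in KO mTEClo, from 13 counts, against 12.9 CPM (4.33 to 30.1) in WT mTEClo. With no overlap and a log2 change of -3.75 (SE 0.45, adjusted p = 1.2e-06), it had the strongest change of the members in this gate. Saa3 was at 3.27, 2.49, 0 and 2.45 CPM in KO mTEClo and at 12.9 CPM (2.98 to 60.8) in WT mTEClo, a log2 change of -3.24 (SE 0.82, adjusted p = 0.0079). Its ranges overlapped, since the lowest WT library lay under the highest KO library. The Saa3 call ended with age as a term (-2.55, adjusted p = 0.15) and among males of 5 weeks (-1.44, adjusted p = 0.097), a set with only 1 WT mTEClo library. Among shallow libraries Saa3 missed the threshold with a log2 change no smaller (-3.76, SE 1.12, adjusted p = 0.12). Saa2 was near the limit of detection in mTEClo, with 2 counts over KO mTEClo and 12 over WT mTEClo, a ratio of 0.381 (exact 95% counting interval 0.0414 to 1.71), and did not pass (adjusted p = 0.37). Apcs had the same counts in this gate, 2 and 12, and the same ratio.

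Hp was at 0, 0.622, 7.20 and 4.42 CPM in KO mTEClo and at 17.8 CPM (11.0 to 23.9) in WT mTEClo, a log2 change of -2.09 (SE 0.42, adjusted p = 0.00084) without overlap. As with Crp, the 2 KO libraries of 5 weeks were the lowest, and the log2 change was -1.38 among deeper libraries, while the shallow KO libraries held 1 count of Hp in all. Lbp was at 58.9, 52.3, 72.9 and 76.5 CPM in KO mTEClo, all above the WT mTEClo libraries at 42.1 CPM (38.1 to 49.2), a log2 change of 0.62 (SE 0.13, adjusted p = 0.00090). The Lbp call ended with age as a term (0.30, adjusted p = 0.35) and among males of 5 weeks (0.29, adjusted p = 0.51). Hpx had a median of 2.58 CPM in KO mTEClo and 2.94 CPM in WT mTEClo (log2 change -0.79, SE 0.49, adjusted p = 0.26), and Orm1 6.56 and 6.40 CPM in KO and WT mTEClo (log2 change -0.09, SE 0.29, adjusted p = 0.86). For neither gene does this show equal levels.

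The effect of the knockout was then compared between the gates, as the change in mTEChi minus the change in mTEClo. Crp, Hp, Hpx, Orm1 and Lbp passed this test, 5 of 8 genes against 24.1% of all tested genes. One of the 8 was positive, against 8.61% of all genes, and 4 were negative, against 15.5%. For Crp the difference was 1.80 (SE 0.25, adjusted p = 4.6e-06), since it was higher in KO mTEChi and lower in KO mTEClo. Lbp showed the mirror image, lower in KO mTEChi and higher in KO mTEClo, with a difference of -2.19 (SE 0.24, adjusted p = 1.3e-07). The differences of Hp (-2.64, SE 0.81, adjusted p = 0.018) and Hpx (-2.36, SE 0.71, adjusted p = 0.015) were negative, with the larger decrease in mTEChi for both. Orm1 passed narrowly (-1.02, SE 0.38, adjusted p = 0.046) and was lost when any of 14 single libraries was left out. The Hp call was lost without replicate 3 or 4 of KO mTEClo (adjusted p = 0.12 and 0.060) or replicate 2 of KO mTEChi (adjusted p = 0.052). With replicate number as a block Hp (-2.51, adjusted p = 0.058) and Orm1 (-0.997, adjusted p = 0.075) missed the threshold with differences of about the same size. That block spans all 23 libraries, so it also joins same-numbered WT libraries and both genotypes, which were not taken as pairs. For Saa1 the difference was 0.32 (SE 0.58, adjusted p = 0.75) and for Saa3 0.43 (SE 1.04, adjusted p = 0.82), so a difference between gates was not detected. Saa2 (-3.36, SE 1.66, adjusted p = 0.15) rests on 2 counts in KO mTEClo, and DESeq2 called it (adjusted p = 0.029).

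**Figure D3:**
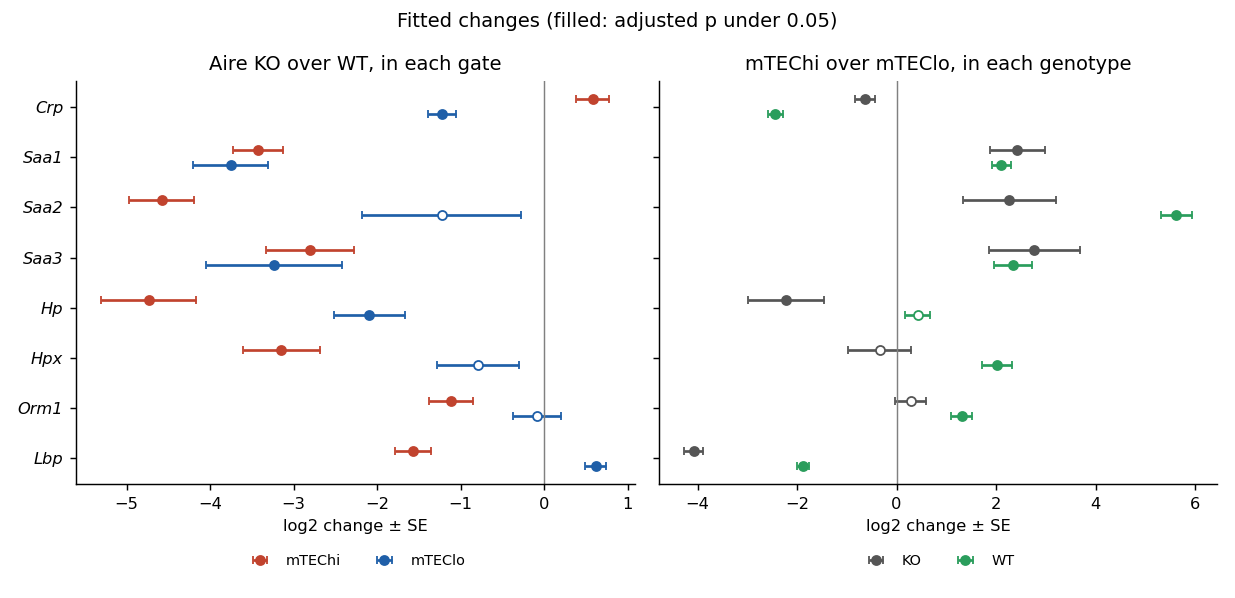
Fitted log2 changes with their SE for the 8 tested genes, KO over WT in each gate (left) and mTEChi over mTEClo in each genotype (right), with filled points for an adjusted p under 0.05. Crp and Lbp change sign between the gates on the left, and on the right the Crp gap shrinks to -0.63 in KO, against -2.44 in WT.

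Between the gates of WT thymus, 5 of the genes were higher in mTEChi and 2 were lower. The 7 of 8 called is close to the 70.0% of all tested genes that differed between these gates. Higher calls were 5 of 8, against 37.0% of all genes, and lower calls 2 of 8, against 32.9%. Median log2 change was 1.66 for the members and 0.01 for all tested genes. These libraries are also the WT side of both knockout comparisons, so the comparisons are not independent. Saa2 differed most, at 26.2 CPM (20.04 to 29.5) in WT mTEChi against 0.293 CPM (0 to 2.50) in WT mTEClo, a log2 change of 5.62 (SE 0.32, adjusted p = 1.4e-15). Saa3 (2.34, SE 0.38), Saa1 (2.11, SE 0.20), Hpx (2.02, SE 0.30) and Orm1 (1.31, SE 0.21) were also higher in WT mTEChi, each with an adjusted p of 1.9e-05 or less. Among the deeper libraries 8 of 8 genes passed, beside 70.2% of all genes, and among the shallow ones 6 of 8, beside 55.5% of all genes. In the shallow libraries Saa3 (1.55, adjusted p = 0.087) and Hpx (0.80, adjusted p = 0.14) did not pass. Crp (-2.44, SE 0.15, adjusted p = 6.7e-15) and Lbp (-1.89, SE 0.12, adjusted p = 3.7e-14) were lower in WT mTEChi, where no library reached the lowest WT mTEClo library. Hp did not differ past the threshold (0.42, SE 0.26, adjusted p = 0.15). Its direction depended on the libraries, with 0.72 (adjusted p = 0.00097) among deeper ones and -0.82 (adjusted p = 0.023) among shallow ones.

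Without Aire, 6 of 8 genes differed between the gates, against 57.6% of all tested genes, 3 higher in mTEChi (27.7% of all genes) and 3 lower (29.9%). The median log2 change of the members was -0.03, against -0.04 over all genes. Lbp was the most unequal, at 3.75 CPM in the median KO mTEChi library and 65.9 CPM in the median KO mTEClo library, a log2 change of -4.08 (SE 0.19, adjusted p = 8.4e-17). Saa1 (2.43, SE 0.55, adjusted p = 0.00049) and Saa3 (2.77, SE 0.91, adjusted p = 0.014) were higher in KO mTEChi, so both kept a gate difference of the WT direction at far lower levels. Saa2 had 11 counts in KO mTEChi and 2 in KO mTEClo, a ratio of 5.77 (exact 95% counting interval 1.26 to 53.6; adjusted p = 0.039). Its fitted log2 change was 2.27, and 2.36 with the KO libraries alone paired by replicate number as a block, where it missed the threshold (adjusted p = 0.069). The Saa2 call was also lost when any of 5 single KO libraries was left out, replicates 1, 3 and 4 of KO mTEClo and 3 and 4 of KO mTEChi (adjusted p from 0.062 to 0.13). Crp (-0.63, SE 0.20, adjusted p = 0.0082) was lower in KO mTEChi, a call that ended without replicate 4 of KO mTEClo (-0.34, adjusted p = 0.15). Among males of 5 weeks the log2 change of Crp between the KO gates was -0.052. At that age Crp was at 19.3 and 20.9 CPM in KO mTEChi and at 19.1 and 23.65 CPM in KO mTEClo, whose libraries were shallow. At 6 weeks it was at 20.6 and 21.9 CPM in KO mTEChi and at 35.1 and 44.9 CPM in KO mTEClo. Hp was lower in KO mTEChi too (-2.22, SE 0.77, adjusted p = 0.016) and was lost without replicate 3 or 4 of KO mTEClo (adjusted p = 0.13 and 0.057) or replicate 2 of KO mTEChi (0.051). Hpx (-0.34, SE 0.63, adjusted p = 0.67) and Orm1 (0.28, SE 0.31, adjusted p = 0.45) did not pass.

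Sex could be read inside WT only, while age also varied inside the KO groups, each in few libraries. Crp was at 98.5 and 101 CPM in the WT mTEClo females of 5 weeks, above the male of that age at 82.1 CPM. At 4 weeks the WT mTEClo female was at 70.3 CPM, inside the range of the 4 males (56.3 to 90.5 CPM). In WT mTEChi Crp was at 18.1 and 19.5 CPM in the females, above the 3 males of 5 weeks at 12.1 to 14.9 CPM. Orm1 ran the other way in WT mTEChi, at 8.73 and 9.58 CPM in the females and 15.6 to 16.9 CPM in males of 5 weeks. In WT mTEClo Orm1 was at 7.81 to 9.66 CPM in the 4 males of 4 weeks and at 3.36 CPM in the male of 5 weeks. These are values of single libraries, and no test was made on them.

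Across the 23 libraries the members fell into different patterns of log2 CPM. Pearson's r, given as a description over libraries that share groups and depth, was 0.90 between Saa1 and Saa3, 0.80 between Saa2 and Saa3 and 0.79 between Saa1 and Saa2. Hpx followed Saa2 (0.78) and Saa3 (0.76), and Orm1 followed Saa2 (0.71). Crp and Lbp ran together (0.65) and Crp ran against Saa2 (-0.69). Over all tested genes, those most like Crp were G930009F23Rik (0.97), Il13ra1 (0.96) and Fbxo32 (0.95), and those most like Lbp were Dpp6, Tbc1d31 and Sema5a (0.98 each). Most like Saa1 were Vnn3 (0.95), Lrguk and Lrrc23 (0.93 each). For Saa2 they were Car3, Cryaa and Mt4 (0.98 each), and for Saa3 Onecut2 (0.94), 9330162B11Rik (0.91) and Mgam (0.91). For Hp they were Ccdc39 (0.95), Dynlrb2 (0.94) and Slc28a3 (0.93), and for Hpx Mucl2 (0.93), Lefty2 and Muc2 (0.92 each). Orm1 had weaker matches in Fap, Arl4a and L3mbtl1 (0.84 each). Car3, the nearest to Saa2, averaged 0.601 CPM in KO mTEChi, 20.5 CPM in WT mTEChi, 0 in KO mTEClo and 0.225 CPM in WT mTEClo.

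Other acute phase genes, mostly inducible, were measured as a list of 32, of which 22 were tested. The list also holds the constitutive Saa4 and the Orm1 relatives Orm2 and Orm3. In KO mTEChi 13 of the 22 were lower and 6 higher than in WT mTEChi, against 29.4% and 23.9% of all tested genes. Their median log2 change was -1.58, the same with genes at 0 put at their bound. Itih4, of the inter-alpha-trypsin inhibitor heavy chain family, averaged 1.25 ± 0.794 CPM in KO mTEChi and 44.6 ± 9.77 CPM in WT mTEChi (log2 change -5.20, SE 0.34, adjusted p = 1.3e-12). Its relative Itih3 averaged 0.607 ± 0.561 CPM in KO and 27.1 ± 7.23 CPM in WT mTEChi (adjusted p = 1.7e-11). Fgb, a fibrinogen chain, was at 0 in KO mTEChi and at 26.2 ± 7.47 CPM in WT mTEChi, at least 87.5-fold lower. Mbl2, a mannose-binding lectin, averaged 0.296 ± 0.593 CPM in KO and 15.5 ± 3.26 CPM in WT mTEChi (adjusted p = 3.2e-09). Itih4, Itih3, Fgb and Mbl2 passed the count filter through WT mTEChi alone, as Saa2 did. Such genes could be called lower in KO mTEChi but hardly higher. Shares of calls in this and the further lists therefore describe the lists and do not test them. Mt1, a metallothionein, rose to 130 ± 6.19 CPM in KO mTEChi, against 57.2 ± 7.52 CPM in WT (log2 change 1.21, SE 0.12, adjusted p = 1.2e-09), and Il1rn, which encodes the IL-1 receptor antagonist, to 281 ± 14.4 CPM, against 156 ± 9.85 CPM (log2 change 0.81, SE 0.08, adjusted p = 5.5e-09). Named after their values were seen, the other 4 that rose were Hamp, C3, Mt2 and Steap4. In KO mTEClo 4 of the 22 were higher (Mt1, Mt2, Il1rn and Hamp2) and Cp was lower, again named after their values were seen. Of all tested genes 12.9% were higher and 8.91% lower in KO mTEClo. The list's median in mTEClo was -0.27, or -0.13 with genes at 0 at their bound.

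The close copies of Orm1 behaved unevenly. Orm3 averaged 1.86 ± 1.25 CPM in KO mTEChi and 5.43 ± 1.68 CPM in WT mTEChi (log2 change -1.65, SE 0.42, adjusted p = 0.0015). Orm2 averaged 3.74 ± 0.816 CPM in KO mTEChi and 4.74 ± 1.10 CPM in WT mTEChi (log2 change -0.23, SE 0.33, adjusted p = 0.58). Both stayed at or below 1 CPM on average in the mTEClo groups.

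Negative acute phase proteins, which the liver makes less of during the response, were listed together with other liver-secreted proteins as 12 genes with 10 tested. None was higher and 6 were lower in KO mTEChi, against 23.9% and 29.4% of all tested genes, with a median log2 change of -2.06. Albumin (Alb) was at 0 in KO mTEChi and at 20.6 ± 4.86 CPM in WT mTEChi, at least 68.2-fold lower. Alb, too, passed the count filter through WT mTEChi alone. Ambp, the precursor of alpha-1-microglobulin and bikunin, averaged 0.989 ± 1.03 CPM in KO and 17.1 ± 3.902 CPM in WT mTEChi (log2 change -4.09, SE 0.53, adjusted p = 5.2e-07). The transferrin gene Trf averaged 11.8 ± 1.72 CPM in KO and 192 ± 41.3 CPM in WT mTEChi (adjusted p = 0.00026), and Apoa1, the main protein of high-density lipoprotein, 6.13 ± 3.04 CPM in KO and 38.2 ± 6.59 CPM in WT mTEChi (adjusted p = 1.5e-06). Apoh did not pass (5.16 ± 0.890 CPM in KO and 4.25 ± 0.791 CPM in WT mTEChi, adjusted p = 0.39). Apoa2, another lipoprotein component, averaged 3.45 ± 2.86 CPM in KO and 10.0 ± 2.698 CPM in WT mTEChi (log2 change -1.60, SE 0.37, adjusted p = 0.00059). In KO mTEClo 1 of the 10 was lower, Apoa1 (log2 change -1.86, SE 0.61, adjusted p = 0.031), close to the 8.91% of all tested genes.

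**Figure D4:**
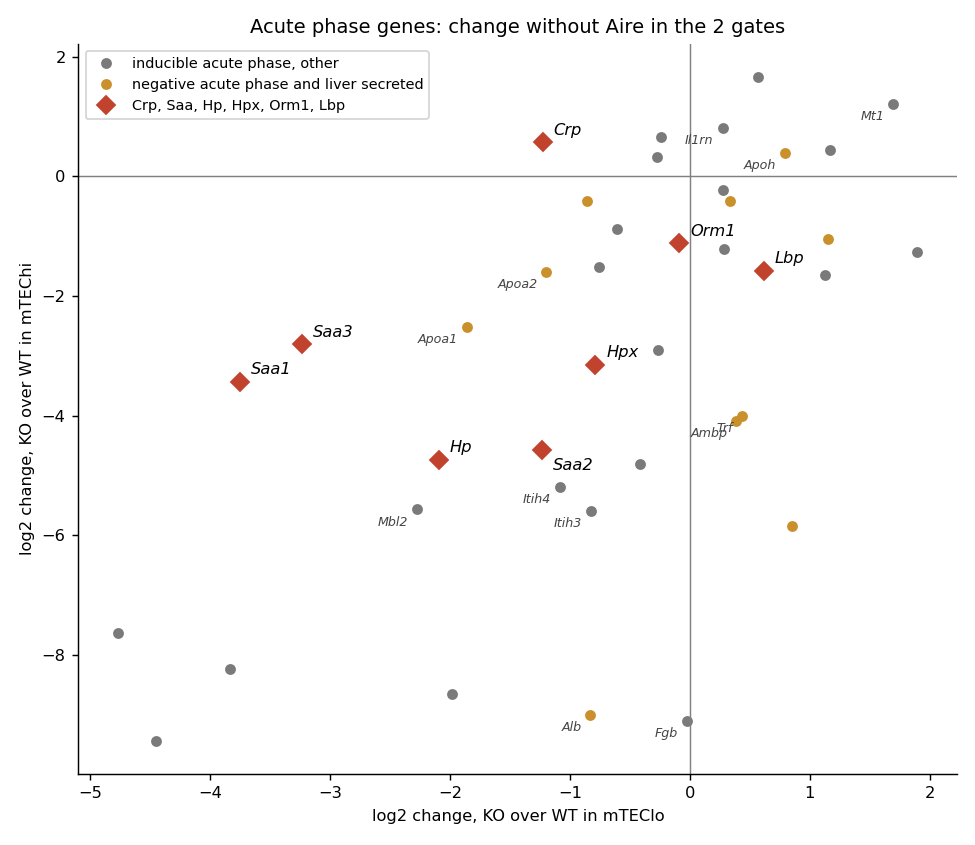
Log2 change of KO over WT in mTEClo (horizontal axis) and mTEChi (vertical axis) for tested acute phase and liver-secreted genes, with the 8 members as diamonds. Members spread from -4.74 to 0.58 in mTEChi, and the lowest grey and ochre points, such as Fgb and Alb, were at 0 in KO mTEChi, so that their fitted values depend on a prior count.

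The receptors and signalling genes that drive the response in liver did not move together. Of 24 listed genes 22 were tested. In KO mTEChi 10 were higher and 7 lower, against 23.9% and 29.4% of all tested genes, with a median log2 change of 0.27. Il6st, which encodes gp130, averaged 61.9 ± 7.16 CPM in KO mTEChi and 159 ± 12.2 CPM in WT mTEChi (log2 change -1.35, SE 0.09, adjusted p = 1.3e-12), and Osmr, the oncostatin M receptor, 53.1 ± 3.43 CPM in KO and 97.0 ± 7.97 CPM in WT mTEChi (-0.84, SE 0.10, adjusted p = 8.1e-08). Both were also lower in KO mTEClo (Il6st -0.27, adjusted p = 0.013, and Osmr -0.40, adjusted p = 0.0016). The NF-kB subunit gene Rela averaged 142 ± 14.1 CPM in KO and 75.8 ± 14.5 CPM in WT mTEChi (0.91, SE 0.12, adjusted p = 1.9e-07), and the IL-1 receptor gene Il1r1 260 ± 19.4 CPM in KO and 181 ± 15.6 CPM in WT (0.51, SE 0.08, adjusted p = 1.0e-05). The cytokine gene Tnf did not pass (35.2 ± 4.64 CPM in KO and 29.0 ± 4.68 CPM in WT mTEChi, adjusted p = 0.17). Lifr and Il6st, like Crp and Lbp, were far lower in WT mTEChi than in WT mTEClo, with log2 changes of -3.55 (SE 0.11) and -2.34 (SE 0.07).

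Of 12 tested genes listed as liver-enriched transcription factors, 6 were lower in KO mTEChi, against 29.4% of all tested genes, with a median log2 change of -0.55. Rfx4 counts among the 6, although it is not known as a liver-enriched factor. Hnf4a averaged 3.13 ± 1.50 CPM in KO and 14.8 ± 3.89 CPM in WT mTEChi (log2 change -2.26, SE 0.39, adjusted p = 2.1e-05), and 1.85 ± 1.41 CPM in KO and 7.11 ± 3.14 CPM in WT mTEClo (-1.72, SE 0.44, adjusted p = 0.0057). Rfx4, Prox1 and Foxa2 were lower in KO mTEChi (log2 changes -3.66, -1.05 and -1.89) and did not pass in mTEClo, and Nr5a2 passed in neither gate (adjusted p = 0.15 and 0.13). Among 11 tested genes for receptors and clearance, 7 were lower and 1 higher in KO mTEChi, against 29.4% and 23.9% of all tested genes. Cd163, the receptor for haptoglobin bound to haemoglobin, was at 0 in KO mTEChi and at 10.2 ± 2.30 CPM in WT mTEChi, at least 35.4-fold lower. Cd163 also passed the count filter through WT mTEChi alone. Lrp1, the hemopexin receptor, averaged 65.0 ± 16.5 CPM in KO and 202 ± 34.3 CPM in WT mTEChi (-1.65, SE 0.15, adjusted p = 4.9e-10), the lipoprotein receptor gene Scarb1 3.87 ± 1.23 CPM in KO and 20.7 ± 4.96 CPM in WT (-2.38, SE 0.26, adjusted p = 1.9e-08), and Cd14, which takes up lipopolysaccharide from Lbp, 6.73 ± 1.77 CPM in KO and 26.9 ± 3.56 CPM in WT (-2.04, SE 0.29, adjusted p = 1.3e-06). Hmox1, the haem-degrading oxygenase, and the pattern receptor gene Tlr2 did not pass in mTEChi (adjusted p = 0.26 and 0.18), and Hmox1 was higher in KO mTEClo, at 27.4 ± 7.31 CPM, against 14.5 ± 2.14 CPM in WT mTEClo (0.94, SE 0.14, adjusted p = 1.9e-05).

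Markers of other cell types that make acute phase proteins also moved. Beside their counts, 29.4% of all tested genes were lower and 23.9% higher in KO mTEChi. In KO mTEClo 8.91% of all tested genes were lower and 12.9% higher. All 9 tested neutrophil markers of 12 listed were lower in KO mTEChi. Their list summed to 29.6 to 52.9 CPM in KO and 315 to 375 CPM in WT mTEChi. Cxcr2 and Retnlg were at 0 in KO mTEChi, against WT mTEChi means of only 1.95 and 1.47 CPM. In mTEClo 2 of the 9 were lower, with sums of 9.81 to 42.9 CPM in KO and 37.2 to 257 CPM in WT. Of 14 hepatocyte markers, 3 of them also in the negative acute phase list, 11 were tested and 8 were lower and 1 higher in KO mTEChi, with sums of 387 to 528 CPM in KO and 634 to 848 CPM in WT mTEChi. Alb, Tat, Cyp2e1 and Serpina1c were at 0 in KO mTEChi. For Serpina1c this shows no loss, since its WT mTEChi mean of 0.376 CPM lay near the KO floor of 0.290 CPM. The sums in mTEClo were 48.5 to 83.4 CPM in KO and 37.0 to 114 CPM in WT. For macrophages and dendritic cells, 10 of 13 tested markers were lower and 2 higher in KO mTEChi, while the sums overlapped, at 414 to 500 CPM in KO and 443 to 534 CPM in WT mTEChi. Of adipocyte markers 2 of 4 tested were lower in KO mTEChi, with sums of 175 to 211 CPM in KO and 161 to 219 CPM in WT. Lower and higher calls in KO mTEChi were 5 and 0 of 6 tested thymocyte markers, 8 and 1 of 11 fibroblast markers, 5 and 0 of 7 endothelial markers and 4 and 4 of 10 cortical epithelial markers. In KO mTEClo 8 of the 10 cortical epithelial markers were higher and 0 lower. Their sums were 968 to 1078 CPM in KO and 570 to 739 CPM in WT mTEClo. Macrophage and dendritic cell sums were 113 to 157 CPM in KO and 50.1 to 80.3 CPM in WT mTEClo. Fibroblast sums were 439 to 517 CPM in KO and 612 to 755 CPM in WT mTEClo. The thymocyte, endothelial and adipocyte sums overlapped between KO and WT mTEClo. Ptprc, the gene of CD45, was among the leading thymocyte markers in every group but KO mTEChi. The sort took CD45- EpCAM+ cells, while neutrophils, macrophages, dendritic cells and thymocytes carry CD45, and fibroblasts and endothelium lack EpCAM. How fully it removed them was not tested. The part of such cells in the changes of Saa3, Hp and the other members was not tested, and in bulk libraries fewer cells of a type and less RNA per cell cannot be told apart.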

How the data were processed

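Sorted cells were processed by RamDA-seq with modifications, per the labels, with random-type and oligo dT priming and Tn5 tagmentation, so libraries carry no strand. The authors deposited whole-number counts per Ensembl gene, 1 column per library. Per the submitters' processing notes, HTSeq 0.11.2, STAR 2.7.3a, fastp 0.20.0, Picard 2.21.1, SAMtools 1.9 and edgeR were used on GRCm38 (mm10), with no role given for each. A second deposited table, of normalized values, was not used here.

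The members and gene lists were chosen with earlier results of these data known. Low counts were removed with edgeR's filterByExpr (groups as factor, minimum count 10). Counts were scaled by TMM and fitted with edgeR 4.0.16 (R 4.3.3) as robust quasi-likelihood models over all 23 libraries, with terms for group and sex, and the fit was tested on simulated data. Sex was estimated from WT libraries alone. The threshold was an adjusted p of 0.05 by Benjamini and Hochberg over the 19310 genes tested, and the SE is the log2 change divided by the root of F. Floors are 3 counts over a group. Genes of the other lists were named by rule, up to 4 of smallest p in KO against WT mTEChi and up to 2 more in WT mTEChi against WT mTEClo, beside the 3 genes of highest Pearson r per member. From this text 1 gene that the rule names and 1 further motif searched, with no match in the 6 promoter windows given, are left out. Annotation is GENCODE on GRCm38, and promoter sequences are from RefSeq. Alternatives were other scalings, filters and thresholds, terms for age, sex or depth, subsets of libraries (those split at 2000000 counts and the KO libraries alone were added after seeing the data), DESeq2 1.42.0, a replicate block and leaving out each library.

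Replicate numbers were checked by correlating deviations from group means of same-numbered libraries. They were taken as pairs in the KO gates, where all 4 exceeded 0.1 (r = 0.16, 0.20, 0.14 and 0.22) although replicates 1 and 3 correlated better with another number (up to 0.18 and 0.28). In both KO gates replicates 1 and 2 were of 5 weeks and replicates 3 and 4 of 6 weeks. Age was not removed from the deviations, so pairing and shared age cannot be told apart here. The main fit held no term for these pairs. No other pair of groups had all correlations over 0.1. The replicate block over all 23 libraries joined same-numbered libraries of those groups too, some of unlike age or sex.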

Additional observations from a re-analysis of the deposited data

Results flagged for a closer look

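In 4 of 35 groups of 4, 7 or 8 libraries tested, 1 library stood apart from the others by its gap over the group's range. Chance marks about 1 in 20 groups of normally distributed values, a rate that need not hold for counts near 0. Saa3 in WT mTEClo replicate 1 was at 60.8 CPM, with the next library at 16.9 CPM. Orm1 in KO mTEChi replicate 1 was at 4.71 CPM, with the next at 9.48 CPM. Saa2 in WT mTEClo replicate 2 was at 2.50 CPM and the next at 0.915 CPM, and Apcs in KO mTEClo replicate 2 was at 1.25 CPM with the other 3 libraries at 0, both from a handful of counts. Replicate 1 of WT mTEClo and replicate 2 of KO mTEClo and WT mTEClo were among the 6 libraries under 2000000 counts.

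The knockout effect differed between the gates, as mTEChi minus mTEClo, for 5 genes by the fitted difference: Crp (1.80 on the log2 scale), Hp (-2.64), Hpx (-2.36), Orm1 (-1.02) and Lbp (-2.19).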

How the results depend on the processing

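Among members, the calls of KO against WT in mTEChi stood at 8 and those between the WT gates at 7 with any library left out. In KO against WT in mTEClo, 3 passed with an age term and 3 among males of 5 weeks, against 5, while calls over all genes came to 1544 and 1689, against 4212. Between the KO gates (6), 3 passed at an adjusted p under 0.01, 3 among males of 5 weeks, and 3 to 6 with a library left out. For the difference between gates (5), 2 passed at an adjusted p under 0.01, 2 among males of 5 weeks, 3 without the filter, 3 with the replicate block and 3 to 5 with a library left out. The replicate block left 8, 5, 7 and 5 calls in the other comparisons (5 also in KO libraries alone), and with it the differences of Hp (-2.51, adjusted p = 0.058) and Orm1 (-0.997, adjusted p = 0.075) missed the threshold at about the same size. Directions turned as follows. Orm1 in KO against WT mTEClo became 0.24 without a sex term, 0.19 with age, 0.45 among males of 5 weeks, 0.34 without the 6 libraries under 2000000 counts and 0.081 without KO mTEClo replicate 2. Among males of 5 weeks Hp between the KO gates became 0.99 (adjusted p = 0.61), and the differences of Saa1, Saa3 and Hp became -0.38, -1.54 and 0.37. The Saa3 difference ran from -0.066 (without WT mTEClo replicate 1; -0.037 without KO mTEClo replicate 3) to 0.773 with 1 library left out, and Hp between the WT gates became -0.82 in those 6 libraries. The cause was not tested for any of these. The males of 5 weeks hold only 1 WT mTEClo library. Library totals leave members near 1 CPM at a few counts per library, though Orm1 in mTEClo and Hp in the WT gates stood above that level.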
